A study of Mus musculus with 2 samples.

Results

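The 10 genes described here encode proteins that neutrophils store in their granules. They were chosen as a list by name, from 32285 gene rows of the count matrices: Mpo, Elane, Prtn3 and Ctsg of the azurophil (primary) granules, Ltf, Camp, Ngp and Lcn2 of the specific (secondary) granules, Mmp8, the collagenase of specific granules, and Mmp9, the gelatinase of the last granules. Ltf, Camp, Ngp and Lcn2 are called the 4 specific granule genes in what follows, and Mmp8 is described beside Mmp9. They were measured by single-cell RNA sequencing (scRNA-Seq), in which each RNA molecule of a cell is counted once by a unique molecular identifier (UMI). There were 2 libraries from wild-type female C57BL/6 mice (C57BL/6J in the study's methods) of 8 to 10 weeks, 1 from temporomandibular joints (TMJ) injected with PBS and 1 from TMJ injected with complete Freund's adjuvant (CFA) at 5 mg/mL. Both sides received 10 µL, the joints of 3 mice were pooled per library, and cells were collected 3 weeks later. The digest held the condyle and temporal bone with disc, ligament and muscle, and magnetic beads took out CD45+ cells before loading, so that the share of immune cells is that of a depleted suspension that included bone. With 1 library per condition no difference between PBS and CFA has a replicate check, and no test was made.

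A neutrophil builds its granules in order while it matures in the marrow. The promyelocyte, a dividing progenitor, makes the azurophil granules, which hold myeloperoxidase (Mpo) and the serine proteases neutrophil elastase (Elane), proteinase 3 (Prtn3) and cathepsin G (Ctsg). Myelocytes and metamyelocytes then make the specific granules with the iron binder lactoferrin (Ltf), the cathelicidin antimicrobial peptide (Camp), neutrophilic granule protein (Ngp) and lipocalin 2 (Lcn2), which captures bacterial siderophores. Gelatinase granules, which carry Mmp9, come last. Neutrophil collagenase (Mmp8) is a protein of the specific granules. Proteins made at the same time fill the same granule, so the order of transcription sets the content of each kind. Lcn2 and Mmp9 are also known from cells outside the lineage, such as epithelial cells, stromal cells and osteoclasts.

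The bases upstream of the members' start sites are shown because the azurophil and the specific granule genes formed groups with different courses in the counts that follow. RefSeq promoter sequences of GRCm38.p6 matched 9 of the 10 members, all but Mmp9. The letters AGGAAGT, a core bound by ETS factors such as PU.1 and chosen after the sequences had been looked at, stood within the 250 bases before the start of 4 of 4 azurophil genes and of 1 of 5 other members (Mmp8, on the opposite strand). Of all 32851 windows of that length, 7.69% held it on either strand. The C/EBP-type site TTGCNNAA stood in 0 of 4 azurophil windows and in 4 of 5 others, namely Ltf, Ngp, Lcn2 and Mmp8 but not Camp, against 9.56% of all windows. The TATA box TATAAA stood in 1 of 4 azurophil windows (Ctsg, on the opposite strand) and 0 of 5 others, against 12.4% of all windows. A match is a description of the letters and not a measured binding site. The AGGAAGT sites of the azurophil genes, in capitals and written 5′ to 3′ on the strand of the gene, stood as follows.
Mpo, chr11:87793534-87793607, plus strand: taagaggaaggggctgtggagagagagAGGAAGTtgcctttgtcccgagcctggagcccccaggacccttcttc
Elane, chr10:79886188-79886274, plus strand: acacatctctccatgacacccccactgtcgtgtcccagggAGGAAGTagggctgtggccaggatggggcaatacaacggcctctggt
Prtn3, chr10:79879533-79879619, plus strand: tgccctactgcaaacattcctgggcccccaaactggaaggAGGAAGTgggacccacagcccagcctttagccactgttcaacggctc
Ctsg, chr14:56102734-56102820, minus strand: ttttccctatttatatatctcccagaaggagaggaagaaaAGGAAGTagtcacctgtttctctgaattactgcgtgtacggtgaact
The TTGCNNAA sites, in capitals, of 2 specific granule genes stood as follows, with that of Ltf on the opposite strand.
Ltf, chr9:111019177-111019264, plus strand: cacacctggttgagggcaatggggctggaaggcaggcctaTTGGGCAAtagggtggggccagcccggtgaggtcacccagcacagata
Ngp, chr9:110419630-110419717, plus strand: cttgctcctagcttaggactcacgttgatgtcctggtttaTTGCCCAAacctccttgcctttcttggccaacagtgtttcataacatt
In GENCODE's annotation of GRCm38, the Mpo and Elane stretches lie upstream of their genes except for the last 27 and 28 bases, which overlap an untranslated exon. The Prtn3 stretch lies inside the gene, with its last 6 bases in an untranslated exon and the rest in an intron of a longer transcript. The Ctsg, Ltf and Ngp stretches lie outside any annotated gene. The TTGCNNAA match of Lcn2 lies in coding sequence of a longer Lcn2 transcript and is not printed. Prtn3 (chr10:79874476-79883174) and Elane (chr10:79886247-79888215) are neighbors on the plus strand with a gap of 3072 bp. Camp (chr9:109847379-109849617), Ngp (chr9:110419747-110423012) and Ltf (chr9:111019271-111042767) lie in this order on chromosome 9, with gaps of 570129 and 596258 bp.

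Of the deposited barcodes, 2667 PBS and 4014 CFA cells passed the limits of at least 500 genes, at most 10% mitochondrial and at most 1% hemoglobin UMIs, with medians of 7022 and 6509.5 UMIs per cell. The libraries shared 2 barcodes among the kept cells, and the hemoglobin limit alone left out 3178 PBS and 339 CFA barcodes. The 10 members were left out of the genes clustered on and out of the markers, so that their levels did not set the stages. Granulocyte clusters held 98 PBS cells (3.67% of the kept cells) and 409 CFA cells (10.2%). They were called progenitor-like (39 PBS and 86 CFA cells), immature-like (40 and 138) and mature-like (19 and 185), each from 2 clusters. The early progenitor cluster (20 and 24 cells) had 5 of 9 progenitor markers (Kit, Cd34, Myb, Sox4, Flt3), and Angpt1, Meis1 and Mecom, genes of early blood progenitors, were among its leading genes. The cycling progenitor cluster (19 and 62 cells) had 3 of 9 (Myb, Ms4a3, Prss57) beside 5 proliferation markers and 2 of 5 monocyte markers. In it Irf8, a regulator of the monocyte branch, had a per-million UMI count (CPM) of 389 in PBS and 376 in CFA. Its name is the least certain of the 6. The cycling immature cluster (19 and 50 cells) and the Ly6g-high immature cluster (21 and 88) each had 8 of 9 immature markers, among them Cebpe, Chil3 and Cd177. The Retnlg-high (14 and 56) and Csf1-high mature clusters (5 and 129) each had 9 of 10 mature markers, such as Cxcr2, Il1b and Il1r2. Interferon-response genes (Isg15, Rsad2) were among the leading genes of the Csf1-high cluster. Col1a1, a collagen gene of stromal cells, held 1183 UMIs in the PBS cells of the Ly6g-high cluster, 973 of them in 1 cell, against 20 UMIs in its 88 CFA cells. Its part in the members' values was not tested.

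Along the 6 clusters most members peaked in the order of their granules, with Elane of PBS and Mmp8 as exceptions. Elane of PBS peaked in cycling immature cells, the cluster in which Camp was highest. Mmp8, a specific granule protein, was highest later than Camp, in Retnlg-high mature cells. In CFA these did not differ from Ly6g-high immature cells beyond counting error, with a fold of 1.02 (0.917 to 1.13). Levels are in CPM, a gene's UMIs summed over the cells of a cluster as a share of all their UMIs, and brackets give exact Poisson 95% intervals, which cover counting error only. PBS had 3 members highest in the progenitor stage (Mpo, Prtn3, Ctsg), 5 in the immature stage (Elane and the 4 specific granule genes) and 2 in the mature stage (Mmp8, Mmp9). In CFA, 4 were highest in progenitors (the azurophil genes), 5 in immature cells (the specific granule genes and Mmp8) and 1 in mature cells (Mmp9). The 2 members whose highest stage differed between libraries were Elane and Mmp8, and both differences were lost in some settings. Elane of PBS was highest in progenitors at a mitochondrial limit of 20% and with stages from each cell's own markers. Mmp8 of CFA was highest in mature cells without the hemoglobin limit, without the highest doublet scores and with log-normalized counts. The same held for Mmp8 with stages from each cell's own markers and at a recluster resolution of 1.5. Other members moved too. Ltf of PBS was highest in mature cells without the hemoglobin limit and with log-normalized counts. Prtn3 of PBS was highest in immature cells without the hemoglobin limit.

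**Figure D1:**
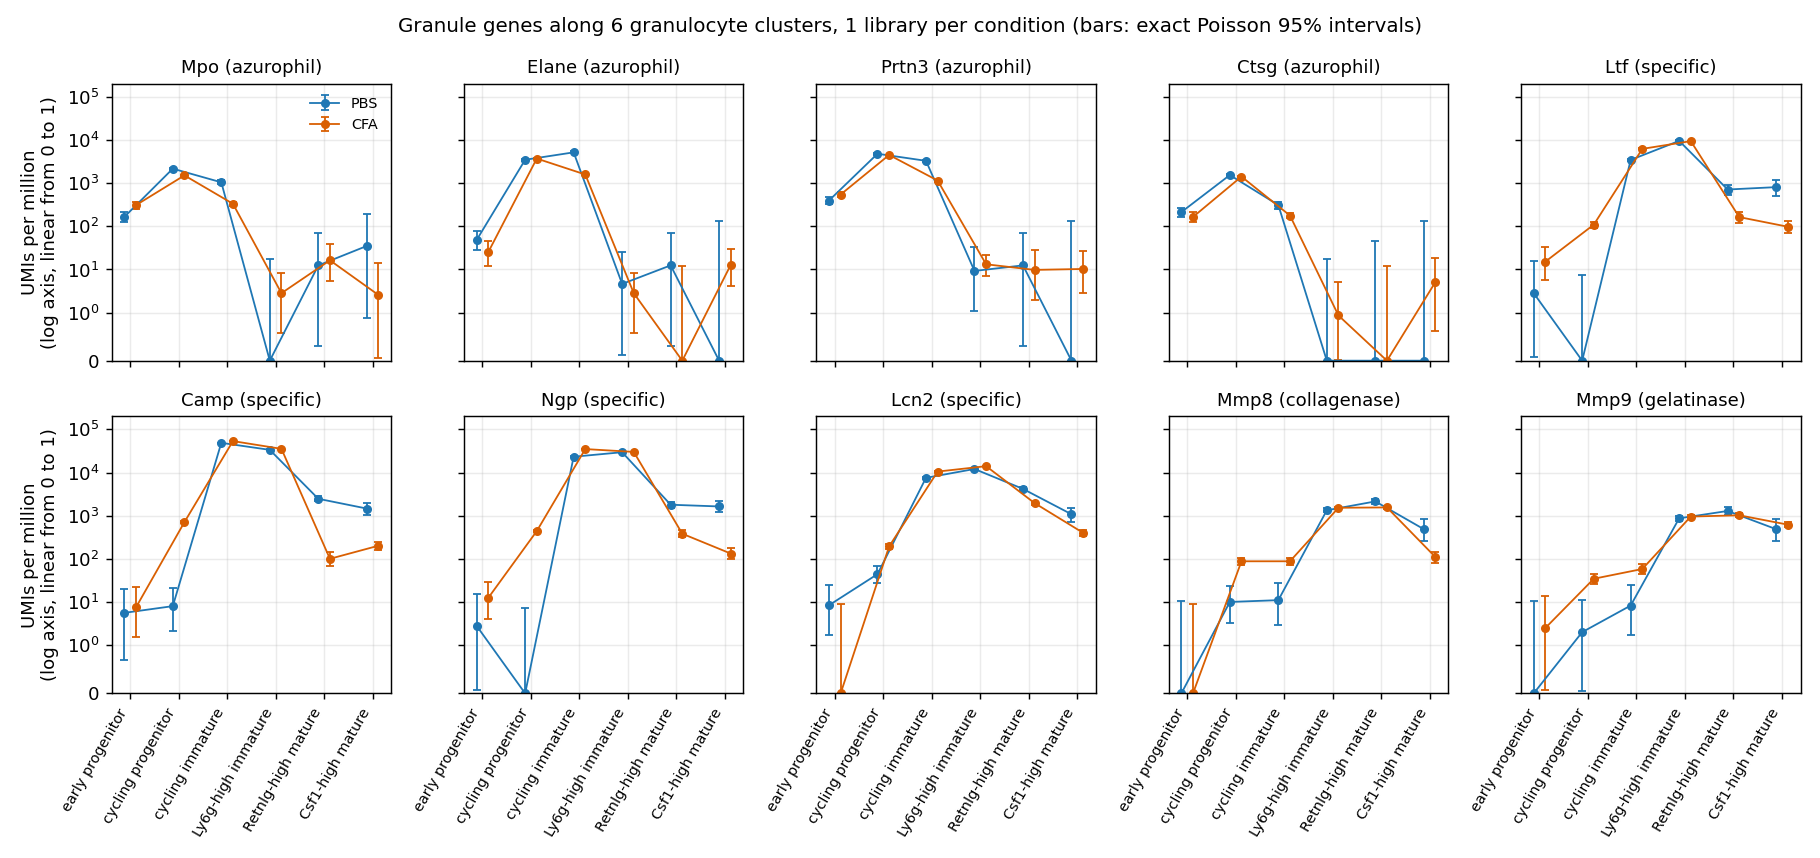
Level of each member (CPM, log axis that is linear from 0 to 1) in the 6 granulocyte clusters of the PBS (blue) and CFA (orange) library, with exact Poisson 95% intervals as bars. The azurophil genes peaked in the cycling progenitor or cycling immature cluster, the specific granule genes in the immature clusters, and Mmp8 and Mmp9 were highest in the Ly6g-high immature and Retnlg-high mature clusters.

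Mpo, which makes hypochlorous acid from hydrogen peroxide, stood in PBS at 164, 2154, 1039.6, 0, 12.4 and 35 CPM in the early progenitor, cycling progenitor, cycling immature, Ly6g-high immature, Retnlg-high mature and Csf1-high mature clusters. The same clusters of CFA had 308, 1504, 331, 2.82, 16.3 and 2.57. Both libraries were thus highest in cycling progenitors, and from the Ly6g-high cluster on no cluster held more than 5 Mpo UMIs. Prtn3, a serine protease that also is the autoantigen of some vasculitides, went through 394, 4766, 3269, 9.25, 12.4 and 0 in PBS and 543, 4470.1, 1143, 13.2, 9.77 and 10.3 in CFA. It was the azurophil member found in most early progenitors, with UMIs in 13 of 20 PBS and 19 of 24 CFA cells. Ctsg, a chymotrypsin-like protease, went through 212, 1532, 309, 0, 0 and 0 in PBS and 164, 1412, 177, 0.941, 0 and 5.13 in CFA.

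Elane, the protease whose human gene is mutated in cyclic and severe congenital neutropenia, was present in the fewest early progenitors of the 4. It stood at 48.1, 3459, 5134, 4.63, 12.4 and 0 CPM in PBS and 25.2, 3688, 1578, 2.82, 0 and 12.8 in CFA. Those early cells held 17 PBS and 10 CFA UMIs of it, in 2 of 20 and 3 of 24 cells. Between the cycling progenitor and the cycling immature cluster it was 1.48-fold (1.39 to 1.59) higher in the PBS immature cells but 2.34-fold (2.22 to 2.47) lower in the CFA immature cells. In PBS its stage totals were 2036 (1941 to 2135) in progenitors and 3205 (3061 to 3355) in immature cells, and without the early progenitor cluster the progenitor stage was the higher one. Summed over the 4 azurophil genes, the level was 11911 in PBS and 11074 in CFA cycling progenitors and 13.9 and 19.8 in Ly6g-high immature cells. The place of the azurophil peak moved with the clustering. At a resolution of 0.8 no cluster was named progenitor. With 50 principal components or log-normalized counts, 0 PBS members and 2 or 0 CFA members were highest in progenitors. There the progenitor stage held 22 PBS and 24 CFA cells or 20 and 25, instead of 39 and 86. The early progenitor cluster alone held 20 and 24.

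The specific granule genes were low in progenitors and peaked in immature cells, although the highest stage of Ltf in PBS moved in the settings named above. Camp, whose peptide lyses bacteria, stood at 5.66, 8.11, 48746, 33551, 2474 and 1469 CPM in PBS and 7.57, 714, 53539.7, 35416, 101 and 203 in CFA. Every cell of the cycling immature cluster held Camp UMIs in both libraries. Ngp, a cystatin-family protein of the granules, went through 2.83, 0, 23254, 29573, 1803 and 1644 in PBS and 12.6, 443, 35012, 30060, 384 and 133 in CFA. Camp was higher in the cycling than in the Ly6g-high immature cells of both libraries, whereas Ltf and Lcn2 were higher in the Ly6g-high cells. Ltf went through 2.83, 0, 3431, 9458, 709 and 805 in PBS and 15.1, 109, 6182, 9341, 163 and 97.6 in CFA. Lcn2 went through 8.5, 44.6, 7553, 12104, 4189 and 1084 in PBS and 0, 196, 10545, 14062, 1965 and 403 in CFA. In cycling immature cells all 10 members together took 9.28% of UMIs in PBS and 10.9% in CFA. In Csf1-high mature cells they took 0.602% and 0.16%. The step from Ly6g-high to Retnlg-high cells was smaller for Lcn2 than for Camp. In CFA, Retnlg-high cells had Lcn2 7.16-fold (6.6 to 7.78) lower and Camp 351-fold (247 to 516) lower than Ly6g-high cells, and in PBS they were 2.89-fold (2.58 to 3.25) and 13.6-fold (11.8 to 15.7) lower, where 3 of 14 Retnlg-high PBS cells held 80.4% of Camp and 57.3% of Lcn2 UMIs.

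Mmp8 and Mmp9 appeared last. Mmp8, which cleaves fibrillar collagen, stood at 0, 10.1, 11.1, 1341, 2151 and 489.7 CPM in PBS and 0, 88.5, 88.5, 1533, 1561 and 110.4 in CFA. Cycling immature cells, which had the highest Camp, held 4 PBS and 98 CFA Mmp8 UMIs, 92 of the latter in 3 cells. Mmp9, which cleaves gelatin and basement membrane collagen, went through 0, 2.03, 8.36, 874, 1293 and 489.7 in PBS and 2.52, 34.9, 58.7, 960.1, 1026 and 624 in CFA. In CFA the immature and mature stages did not differ in Mmp8 beyond counting error, with 796 (759 to 834) and 749.5 (687 to 817). For Mmp9 they did, with 500 (471 to 531) and 801 (736 to 871). The 2 parted in the Csf1-high cells of CFA, where Mmp8 was at 110.4 (79.9 to 149) and Mmp9 at 624 (548 to 707), with UMIs in 24 and 67 of 129 cells.

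To see whether azurophil and specific granule transcripts met in the same cells, each cell was thinned to 1000 UMIs, which left out 4 CFA cells. Cycling progenitors with only azurophil UMIs numbered 12 of 19 in PBS (63.2%, 95% Clopper-Pearson interval 38.4 to 83.7) and 38 of 62 in CFA (61.3%, 48.1 to 73.4). In the cycling immature cluster no cell had azurophil UMIs alone, and 12 of 19 PBS cells (63.2%, 38.4 to 83.7) and 17 of 50 CFA cells (34%, 21.2 to 48.8) had both kinds. In Ly6g-high immature cells, 21 of 21 PBS and 85 of 88 CFA cells had specific granule UMIs alone. Both kinds were in 2 of 19 PBS and 9 of 62 CFA cycling progenitors. Cells with neither kind were 78 of 125 in the Csf1-high cluster of CFA (62.4%) and 13 of 56 in the Retnlg-high cluster (23.2%). Early progenitors with neither kind were 15 of 20 in PBS and 15 of 24 in CFA, and cycling progenitors with neither were 5 of 19 and 12 of 62. The plot of single cells shows the same corner, with progenitors along the azurophil axis, mature cells along the specific axis, and a few immature cells high on both.

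By stage, Prtn3 remained after the same thinning in 43.6% (27.8 to 60.4) of PBS and 61.6% (50.5 to 71.9) of CFA progenitors, and in 25% (12.7 to 41.2) and 10.9% (6.21 to 17.3) of immature cells. Endothelial-like cells held it at shares of 1.27% in PBS and 0.731% in CFA. Camp was in 0% (0 to 9.03) of PBS and 8.14% (3.34 to 16.1) of CFA progenitors, in 100% (91.2 to 100) and 94.9% (89.8 to 97.9) of immature cells and in 31.6% (12.6 to 56.6) and 13.3% (8.68 to 19.1) of mature cells. Mmp9 was in 0% (0 to 9.03) and 2.33% (0.283 to 8.15) of progenitors, 25% (12.7 to 41.2) and 38.4% (30.3 to 47.1) of immature and 68.4% (43.4 to 87.4) and 43.6% (36.3 to 51.2) of mature cells. The shares thus followed the order of the levels for Prtn3 and Mmp9 in both libraries.

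**Figure D2:**
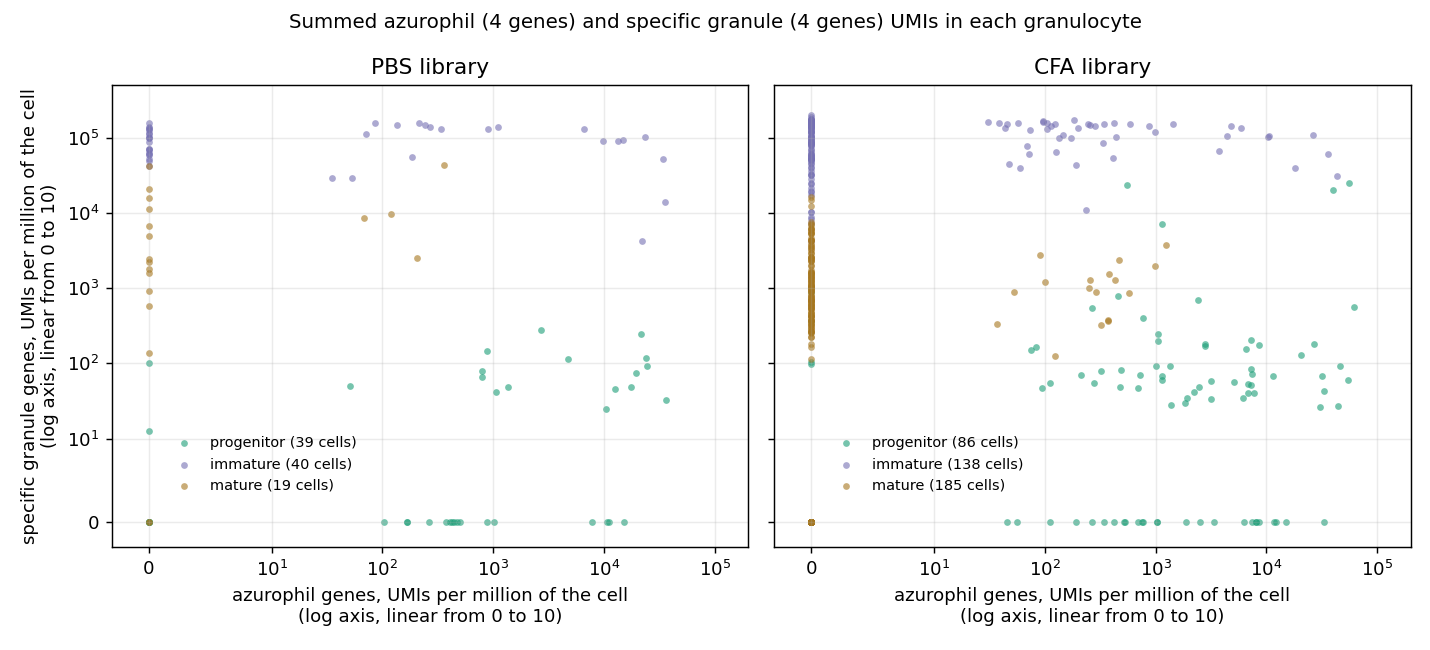
Each point is 1 granulocyte, with the summed azurophil genes (Mpo, Elane, Prtn3, Ctsg) on the x axis and the summed specific granule genes (Ltf, Camp, Ngp, Lcn2) on the y axis, both in CPM of that cell on log axes that are linear from 0 to 10, for 98 PBS and 409 CFA cells. Progenitor cells lie low on the y axis except for a few CFA cells, and immature cells lie high on it with azurophil levels from 0 upward.

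Within a cluster the UMIs of a member were spread unevenly over cells. In cycling progenitors, 3 of 62 CFA cells held 1018 of the 1147 Camp UMIs and 605 of the 711 Ngp UMIs, so that the specific granule genes seen in this cluster came mostly from a few cells. Without the 3 cells highest in Camp its level there was 84.7 in place of 714 CPM. Elane ranged over the cycling immature cells of PBS from 0 to 17568 CPM of the cell with a median of 429, and 3 of 19 cells held 56.8% of its UMIs. In CFA it ranged from 0 to 24500.4 with a median of 0, and 3 of 50 cells held 54.1%. Camp was spread more evenly there, from 3594 to 90069 in PBS (median 64854) and from 16560 to 96658 in CFA (median 66324).

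The study set CFA against PBS to follow the inflamed joint. Within a stage, ratios of CFA to PBS were taken for genes that had 10 or more UMIs in both libraries, and a ratio past 2-fold was called where each held 20 or more cells. Of 7983 genes in progenitors, 3.02% were at least 2-fold higher and 5.25% at least 2-fold lower in CFA, with a median ratio of 0.987. Of the 5 members with enough UMIs there, 1 was higher and 0 were lower. The other 5 had under 10 PBS UMIs, with 1 in PBS and 181 in CFA for Ltf, 6 and 1150 for Camp, 1 and 716 for Ngp, 5 and 142 for Mmp8 and 1 and 57 for Mmp9, and got no ratio. Mpo had a ratio of 0.957 (0.892 to 1.03), Elane of 1.46 (1.38 to 1.54), Prtn3 of 1.25 (1.2 to 1.31) and Ctsg of 1.19 (1.1 to 1.29). The early progenitor cluster made up 20 of 39 PBS and 24 of 86 CFA cells. In the cycling progenitor cluster alone, Mpo had 0.698 (0.649 to 0.751) and Elane 1.07 (1.01 to 1.13). Prtn3 had 0.938 (0.895 to 0.983) there and Ctsg 0.921 (0.848 to 1.002). The early cluster had 1.87, 0.524, 1.38 and 0.772 in the same order. With 19 PBS cells in the cycling cluster, under the 20 required, no call was made there. In the whole stage the member past 2-fold was Lcn2 with 5.31 (3.53 to 8.34), from 25 PBS and 314 CFA UMIs, and 3 of the 86 CFA cells held 78.3% of the latter. The granulocyte transcript S100a8 had a larger ratio in the same cells, 7.96 (6.97 to 9.12), at 274 CPM in PBS and 2180 in CFA. The rise was thus not particular to Lcn2, and its source was not tested. Without the 3 highest cells of each library the Lcn2 ratio was 2.22, on 13 PBS and 68 CFA UMIs, and that of Elane was then 2.22. The call of Lcn2 could not be made at a resolution of 0.8, which named no progenitors. It was lost without the highest doublet (Scrublet) scores, with 25.6 CPM in PBS and 36.3 in CFA. It was also absent with 50 principal components (7.7 and 0) and with log-normalized counts (8.5 and 0). In these the stage held 22 PBS and 24 CFA cells or 20 and 25, near the size of the early progenitor cluster. That cluster held 3 PBS and 0 CFA Lcn2 UMIs, and all 314 CFA UMIs lay in cycling progenitors. The cells compared thus differed from those of the call.

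In the immature stage, 3.88% of 5874 genes were at least 2-fold higher and 10.2% at least 2-fold lower in CFA, with a median ratio of 0.948. Of the 10 members, 0 were higher and 4 lower, and the 4 were the azurophil genes. Mpo stood at 649 (585 to 718) in PBS and 170.5 (154 to 189) in CFA, a ratio of 0.263 (0.227 to 0.304). The ratio of Elane was 0.252 (0.236 to 0.269), that of Prtn3 0.289 (0.266 to 0.313) and that of Ctsg 0.47 (0.371 to 0.599), whose interval reached above 0.5. In the same cells Ltf had 1.36 (1.31 to 1.41), Camp 1.04 (1.02 to 1.05), Ngp 1.27 (1.25 to 1.29) and Lcn2 1.32 (1.29 to 1.36). Mmp8 had 1.56 (1.37 to 1.77) and Mmp9 1.5 (1.28 to 1.75), so that all 6 lay above the 4 azurophil genes. The median over the 10 members was 1.15.

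Nearly all azurophil UMIs of the stage lay in its cycling cluster, which held 19 of 40 PBS and 50 of 138 CFA immature cells. Inside that cluster alone the ratios were 0.319 (0.275 to 0.369) for Mpo, 0.307 (0.288 to 0.328) for Elane, 0.35 (0.323 to 0.379) for Prtn3 and 0.572 (0.451 to 0.728) for Ctsg. They rest on 19 PBS cells, under the 20 required, and no call was made. Elane was present in 11 of the 19 PBS cells and 22 of the 50 from CFA, and the shares of cells with both kinds of granule transcript given above had overlapping intervals. Ltf, a later gene, was 1.8 (1.7 to 1.92) times its PBS level in the same cells and Ly6g stood at 58.5 in PBS and 354 CPM in CFA. Fcnb, an early immature marker, stood at 1187 and 885, and Ms4a3, a progenitor marker, at 312 and 194. Markers of both lists went either way. Of further progenitor markers, Prss57 was lower in CFA (109 and 40.6) and Myb higher (47.4 and 56). Of further immature markers, Chil3 was higher (6305 and 9041), and Itgb2l (100 and 26.2) and Wfdc21 (3364 and 3129) were lower. Where along the cluster the cells of each library stood and a change within cells of equal stage cannot be told apart. Without the 3 highest cells of each library the stage ratios were 0.176 for Mpo, 0.241 for Elane, 0.233 for Prtn3 and 0.246 for Ctsg. Mmp8 and Mmp9 then passed 2-fold, with 2.27 and 2.09. With log-normalized counts merged without integration, in which 41 PBS and 102 CFA cells were immature, no member was past 2-fold lower, against 440 of 6073 genes.

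**Figure D3:**
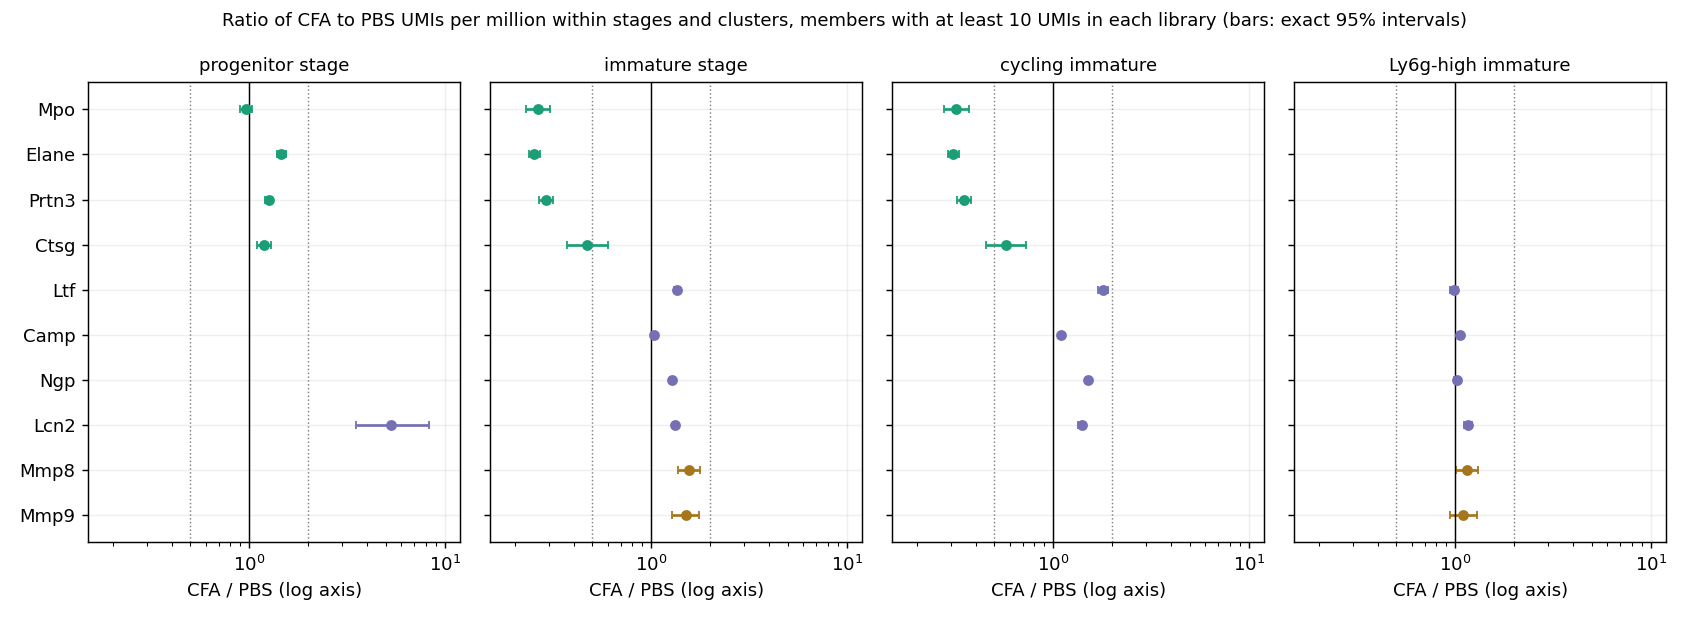
Ratio of CFA to PBS CPM (log axis) for members with 10 or more UMIs in both libraries, in the progenitor and immature stages and in both immature clusters, with exact 95% intervals as bars, a line at 1 and dotted lines at 0.5 and 2. In the immature stage the 4 azurophil genes (green) lie under 0.5 and the 4 specific granule genes (purple) and Mmp8 and Mmp9 (brown) above 1, while in the Ly6g-high cells the 6 members shown lie between 0.988 and 1.16.

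In Ly6g-high immature cells, whose Ltf ratio was 0.988 (0.942 to 1.04), the 6 members measured had ratios near 1, of which Lcn2 was the farthest from 1 with 1.16 (1.11 to 1.21). The mature stage had 19 PBS cells, under the 20 required, so its values are given side by side with no call. Ltf stood at 734 (582 to 913) in PBS and 126 (101 to 156) in CFA. Camp stood at 2210.4 (1940.1 to 2508) and 158 (129.8 to 190.4), and Ngp at 1761 (1521 to 2028) and 244 (209 to 284). All 3 were higher in PBS, and so was Lcn2, at 3375 (3039 to 3738) and 1091 (1015 to 1172). The Ltf and Camp UMIs of PBS lay in few cells. In the Retnlg-high cluster of PBS, 3 of 14 cells held 55 of 57 Ltf UMIs, and in the Csf1-high cluster 1 of 5 cells held all 23 Ltf and 41 of 42 Camp UMIs. Mmp8 was at 1715 (1478 to 1979) and 749.5 (687 to 817), and Mmp9 at 1082 (896 to 1296) and 801 (736 to 871). The makeup of the stage differed, since 5 of 19 PBS cells and 129 of 185 CFA cells were of the Csf1-high cluster. In the Retnlg-high cluster alone, with 14 PBS and 56 CFA cells, Camp was at 2474 (2142 to 2842) and 101 (68.6 to 143) and Mmp8 at 2151 (1842 to 2496) and 1561 (1424 to 1707). Without the 3 cells of each library highest in the gene, Camp there was at 638 in PBS and 51.8 in CFA, Ltf at 32.7 and 25, and Mmp8 at 1374 and 1444. The 5 PBS cells of the Csf1-high cluster held 15 UMIs of Top2a, a gene of dividing cells, all in 1 cell.

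Other genes of these granules differed by list, and the secondary granule list was the uniform one. Of 9 further primary granule and lysosomal genes, 2 were highest in progenitors, 5 in immature and 2 in mature cells of PBS, and 3, 4 and 2 in CFA. Lyz2 (lysozyme) stood at 1143, 4562 and 2045 in PBS and 3419, 9599 and 3018 in CFA, in progenitor, immature and mature cells in turn. Srgn (serglycin), the proteoglycan that packs granule proteases, went through 1312, 816 and 3219 in PBS and 1923, 1519 and 9576 in CFA, and Ctsc, which activates the serine proteases by cutting their propeptides, through 286, 19.1 and 18.3 in PBS and 786, 224 and 175 in CFA. The fourth of this list by level in CFA granulocytes, the protease inhibitor Serpinb1a, which is also one of the immature markers, went through 163, 843 and 101 in PBS and 164, 678 and 8.62 in CFA. All 10 further secondary granule genes were highest in immature cells of both libraries, and 6 of them were not used to name that stage. The 4 with the highest level in CFA granulocytes were the chitinase-like Chil3 (a marker, 117, 5645 and 293 in PBS and 882, 6875 and 171 in CFA), the peptidoglycan binder Pglyrp1 (31.9, 2077 and 1431 in PBS and 100.4, 2319 and 806 in CFA), and the NADPH oxidase subunits Cybb (138, 1189.6 and 303 in PBS and 530.1, 1979.6 and 419 in CFA) and Cyba (464, 1621 and 779.6 in PBS and 656, 1518 and 863 in CFA). Among 9 tertiary granule and secretory vesicle genes, 1 was highest in progenitors, 1 in immature and 6 in mature cells of PBS, where Slc11a1 had under 10 UMIs, and 1, 3 and 5 in CFA. The integrin Itgam went through 7.09, 376 and 358 in PBS and 71.9, 621 and 444 in CFA, the formyl peptide receptors Fpr1 through 0, 53.9 and 220.1 in PBS and 5, 166 and 529.8 in CFA and Fpr2 through 0, 122 and 248 in PBS and 8.49, 158 and 269.9 in CFA, and the endotoxin coreceptor Cd14 through 72.1, 85.2 and 266 in PBS and 420.2, 430.4 and 1479 in CFA.

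Among 10 regulators, 4 were highest in progenitors, 3 in immature and 3 in mature cells of PBS, and 5, 2 and 3 in CFA. Cebpe, which is required for specific granules and was also an immature marker, stood at 30.7, 483 and 9.17 in PBS and 45, 344 and 10.1 in CFA in progenitor, immature and mature cells. Cebpa, which commits cells to the granulocyte line, was at 18.9, 3.48 and 0 in PBS and 31.5, 9.68 and 5.74 in CFA, and Gfi1, which represses monocyte genes, at 4.72, 12.2 and 0 in PBS and 9.49, 10.6 and 1.44 in CFA, both progenitor markers with low counts. Cebpb, which drives emergency granulopoiesis, was at 305, 209 and 899 in PBS and 876, 719.8 and 2913 in CFA, and Cebpd at 111, 287 and 257 in PBS and 204, 339.6 and 356 in CFA. In both libraries Cebpe was highest in the immature stage, which it had helped to name, and Cebpb in the mature stage. Spi1 (PU.1) stood at 269, 367 and 504 in PBS and 315, 417 and 560 in CFA. Runx1 went through 1108, 294 and 660.4 in PBS and 863, 366 and 653 in CFA, Myb through 150, 41.7 and 193 in PBS and 131, 38.2 and 1.44 in CFA, Irf8 through 259.9, 12.2 and 64.2 in PBS and 309, 43.3 and 34.5 in CFA and Klf4 through 165, 90.4 and 18.3 in PBS and 208, 40.1 and 54.6 in CFA. Myb is also a progenitor marker. Its mature value in PBS rests on 19 cells, at 124 in 14 Retnlg-high and 385 in 5 Csf1-high cells.

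Across the 30 named types and stages of each library with at least 20 cells, Pearson's r of log2 (CPM + 10) measured which genes had the most similar pattern, as a description, since the points share libraries and background RNA. Mpo was most like Ctsg (r = 0.98) and Prtn3 (0.95), Ctsg like Mpo (r = 0.98) and Prtn3 (0.96), Prtn3 like Ctsg (r = 0.96) and Mpo (0.95) and Elane like Ms4a3 (r = 0.95) and Prtn3 (0.89). Ms4a3, a progenitor marker, thus had a higher r with Elane than any other member had. Ltf, Camp and Ngp were each most like the other two, with Ltf and Ngp at 0.99. Lcn2 was most like Wfdc21 (r = 0.97) and Pglyrp1 (0.96). Mmp8 was most like Retnlg (r = 0.98) and Ifitm6 (0.96), and Mmp9 like Pilra (r = 0.98) and Adam8 (0.97).

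Outside granulocytes the members mostly lay at a low level that was set beside S100a8, an abundant granulocyte transcript. In endothelial-like cells (711 PBS and 959 CFA, medians of 5632 and 4691 UMIs), which are no known source of Camp, Camp UMIs remained after thinning to 1000 UMIs in 1.41% of the PBS cells and in 4.59% of those of CFA. S100a8 remained in 5.07% and 12.1%, and unthinned the shares for Camp were 9.85% and 19.7%. The members in over 1% of thinned endothelial-like cells were 3 in PBS and 4 in CFA. Shares at this level were read as background. Of all UMIs in kept cells, granulocytes held between 69.4% (Lcn2) and 94.7% (Camp) per member in PBS, and between 41.7% (Mmp9) and 96.7% (Elane) in CFA. Mmp8 had 63% of its CFA UMIs in granulocytes.

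Lcn2 departed from this in fibroblast-like cells. It stood at 19.8 (16.3 to 23.7) CPM in 501 PBS cells and 131 (122 to 141) in 374 CFA cells, a ratio of 6.63 (5.44 to 8.13). S100a8 in the same cells had a ratio of 0.261 (0.228 to 0.297), and Camp of 0.466 (0.371 to 0.583). Cells with Lcn2 were 5 of 497 (1.01%, 0.327 to 2.33) in PBS and 21 of 365 (5.75%, 3.6 to 8.66) in CFA after thinning, against 0.845% and 1.25% of endothelial-like cells. The 3 fibroblast clusters, set apart after their values were seen, differed. The cluster led by Inmt and Apod went from 29.2 (22 to 38) in PBS to 224 (199 to 252) in CFA, with Lcn2 in 8 of 212 and 23 of 146 cells. The cluster led by Pi16 and Mfap5 went from 31.3 (23.7 to 40.6) to 134 (122 to 148), with Lcn2 in 6 of 135 and 53 of 163 cells. S100a8 was at 29.7 and 54 CPM in the former, where it too was higher in CFA, and at 565 and 52.8 in the latter, which held 1028 of the 1139 S100a8 UMIs of PBS fibroblast-like cells. In the cluster led by Prg4 and Sbsn, of 154 PBS and 65 CFA cells, Lcn2 was at 1.85 (0.504 to 4.74) and 7.49 (3.24 to 14.8) and S100a8 at 25.4 and 40.3. In tendon-like cells of CFA, by contrast, Lcn2 was at 198 beside 1267 for S100a8 and 748 for Camp, against 6.3, 26.2 and 9.2 in PBS, so that all 3 were higher in CFA. The Camp UMIs there lay in 27 of 111 cells, and after thinning in 1 of 111.

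Mmp9 had a second place in osteoclast-like macrophages. Osteoclasts are known to use it on bone matrix, which was not measured for these cells. Their cluster led by Mmp12 and Dcstamp had 5 of 6 osteoclast-like markers, and that led by Arg1 had 4 of 6. Ctsk was not detected as a marker in either, nor Dcstamp in the latter. Of the Mmp9 UMIs in kept CFA cells, granulocytes held 41.7%. The 460 CFA cells of that type stood at 166 (159 to 174) CPM, with 2060 UMIs, beside 14 PBS cells that are too few for a ratio. The 280 CFA cells led by Mmp12 and Dcstamp, a cluster chosen after its values were seen, had 202 (193 to 211), with UMIs in 145 cells. The other 180 CFA cells, led by Arg1, had 54.2 (46.2 to 63.2), with UMIs in 38 cells. Beside S100a8, the Mmp12 cluster held 1898 Mmp9 and 13594 S100a8 UMIs and the Arg1 cluster 162 and 5842. Per 100 S100a8 UMIs, the whole type held 10.6 Mmp9 UMIs. The other named types of CFA with at least 20 cells held between 0.579 (tendon-like) and 24.7 (osteoblast-like, from 19 Mmp9 and 77 S100a8 UMIs), and all but the osteoblast-like cells lay under 10.6. Outside granulocytes, the osteoclast-like macrophages of CFA held 866 Mmp8 UMIs beside 19436 of S100a8. Mmp8 in 70 monocyte-like cells of CFA was at 294 (260 to 332) CPM, from 265 UMIs beside 1663 of S100a8. Its thinned share of these cells was 20% (11.4 to 31.3), against 0.418% of endothelial-like cells. Prtn3 was at 184 (157 to 215) in the same monocyte-like cells, while Ctsg was at 13.3 (6.89 to 23.3). The 17 monocyte-like cells of PBS, too few for a call, held 170 Prtn3, 76 Ctsg and 57 Mpo UMIs, so that the low Ctsg was seen in CFA only.

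**Figure D4:**
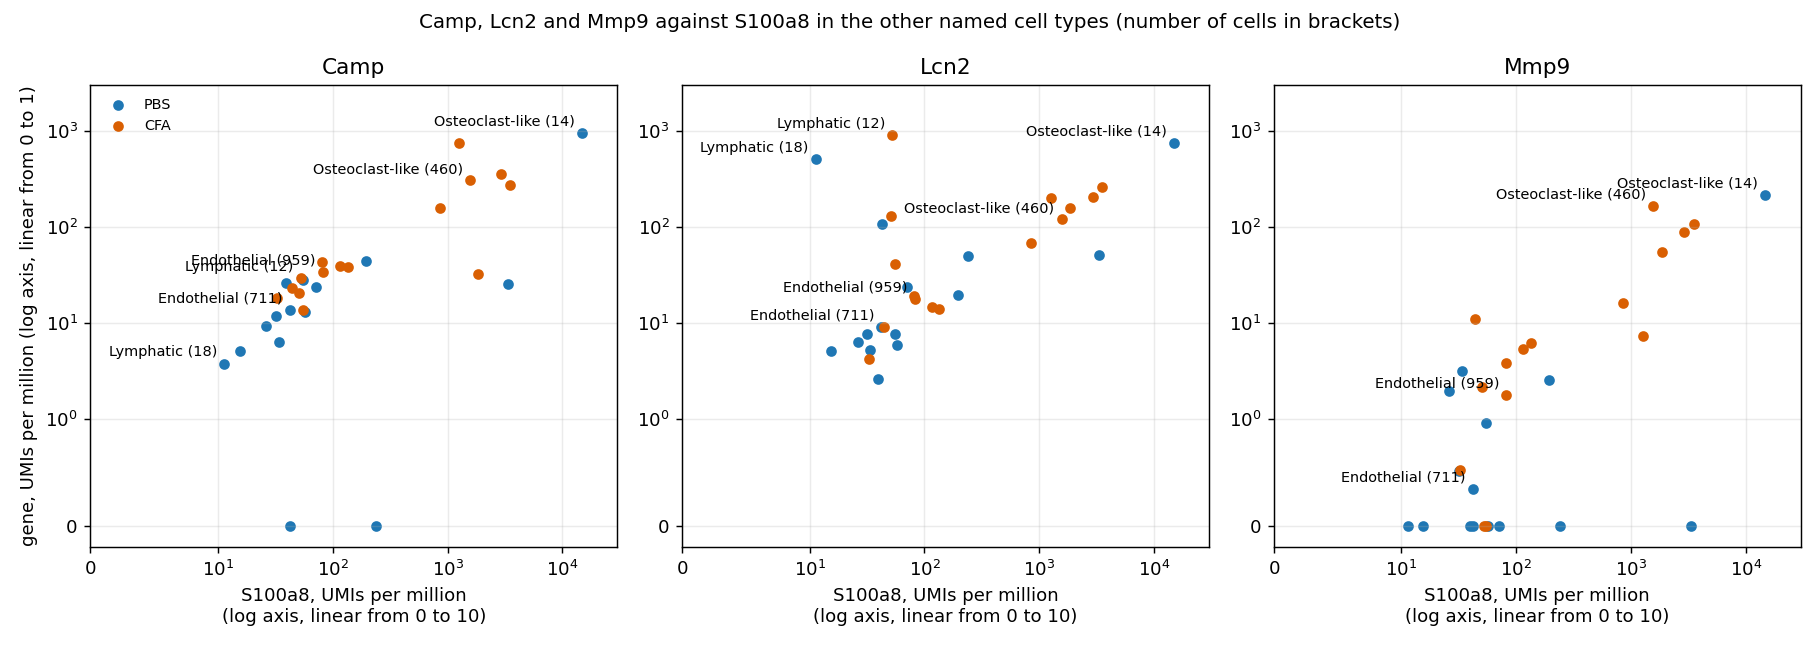
Level of Camp, Lcn2 and Mmp9 (y axis) against that of S100a8 (x axis) in each other named cell type of the PBS (blue) and CFA (orange) library, both in CPM on log axes with a linear stretch next to 0, with the number of cells in brackets for 3 types. Camp is higher where S100a8 is higher in most types, Lcn2 is high beside little S100a8 in lymphatic-like cells, and Mmp9 is highest in osteoclast-like macrophages.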

How the data were processed

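The authors deposited 1 matrix of raw UMI counts per library, made with Cell Ranger 7.0.1 on GRCm38 (mm10). The 10x kit and the digesting enzyme differ between the labels and the study's methods. Members and gene lists were chosen with earlier results of these data known. Barcodes needed at least 500 genes, at most 10% mitochondrial and at most 1% hemoglobin UMIs. Counts were normalized with SCTransform (sctransform 0.4.2) and integrated in Seurat 5.3.0 (R 4.3.3) with 3000 features, 200 principal components and resolution 1.5, without the 10 members. This gave 36 clusters. The 1041 myeloid cells were reclustered into 13 (30 components, resolution 1). A cluster was named from at least 3 markers, found in at least 25% of its cells and at least 2-fold over the rest, and 7 clusters stayed unnamed. Scrublet (scanpy 1.11.5) called 0 PBS and 2 CFA doublets and so had not worked, and the 5% of barcodes with the highest scores were left out only as an alternative. The named genes were the members, the 4 highest of each further list in CFA granulocytes, all regulators with at least 10 UMIs, and the 2 genes most like each member. Intervals are exact Poisson or Clopper-Pearson at 95%, made with scipy 1.17.1, and cover counting error only. Cells of 1 library are not replicates. In simulated data with 200 genes changed 4-fold per stage, 191 in progenitors and 181 in immature cells were tested. The ratios recovered 100% of those. This checks the calculation at a change well past the 2-fold limit and cannot stand in for a replicate library.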

Additional observations from a re-analysis of the deposited data

How the results depend on the processing

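Of 146 values recomputed under other settings, 121 stayed within 1.5 times the value reported. At a resolution of 0.8, where no cell was named progenitor, 8 PBS and 9 CFA members were highest in immature cells. With 50 principal components, 0 PBS and 2 CFA members were highest in progenitors and 8 PBS members in immature cells. With log-normalized counts merged without integration, 0 PBS and 0 CFA members were highest in progenitors, 8 CFA members in immature and 2 in mature cells. There 0 members were past 2-fold higher in CFA progenitors, against 267 of 4886 genes. Past 2-fold lower in CFA immature cells were 0 members, against 440 of 6073 genes. Members highest in mature CFA cells numbered 2 without the hemoglobin limit, without the highest Scrublet scores, with stages from each cell's own markers, and at a recluster resolution of 1.5, an alternative chosen after seeing the data. Members past 2-fold higher in CFA progenitors numbered 0 without the highest Scrublet scores, against 257 of 7835 genes. They numbered 3 with stages from each cell's own markers, against 230 of 8113 genes. Those past 2-fold higher in CFA immature cells numbered 1 without the hemoglobin limit, against 225 of 4496 genes. They numbered 3 without the highest Scrublet scores, against 136 of 4912 genes. At the recluster resolution of 1.5 they numbered 2, against 184 of 5195 genes, and at a fold limit of 1.5 they numbered 1. Members in over 1% of endothelial-like cells, 3 in PBS and 4 in CFA, numbered 8 and 7 after thinning to 2000 UMIs and 8 and 10 without thinning. The progenitor stage held 22 PBS and 24 CFA cells with 50 principal components and 20 and 25 with log-normalized counts. These numbers are near the 20 and 24 cells of the early progenitor cluster, so these settings compare other cells than the 39 and 86 reported. The cause of the other shifts was not tested. No paired analysis was possible because each condition had 1 library. With 19 PBS mature cells and 19 PBS cells in the cycling immature cluster, values of these cells rest on few cells.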

Other observations

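Small types, chosen after their values were seen and with fewer than 20 cells per library, held members apart from S100a8. Lymphatic-like cells had Lcn2 at 507 (425 to 601) in 18 PBS and 903 (767 to 1057) in 12 CFA cells, with UMIs in 13 and 8 cells, beside S100a8 at 11.4 (2.34 to 33.2) and 52.4 (24 to 99.5). Mast- or basophil-like cells, led by Prss34 and Mcpt8, had Ctsg at 2118 (1723 to 2576) in 7 PBS and 2699.6 (2439 to 2981) in 12 CFA cells and Mpo at 1609 (1268 to 2015) and 875 (729 to 1041). Their Elane was at 63.5 (13.1 to 186) and 0 (0 to 25.4), with 3 UMIs in PBS and 0 in CFA, where 3 counts would be 20.7 CPM, so that these cells held azurophil genes in another ratio than the progenitors did. An unnamed cluster of 94 PBS cells led by the gland genes Obp1a and Mucl2 also held Lcn2, at 653 (623 to 685) in the 86 cells with under 1% of their UMIs from such genes, in 18 of which it was found, against 27.8 (18 to 41.1) in 72 CFA cells of the cluster.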
